A study of Mus musculus with 11 samples.

Results

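Hmga1, Hmga2, Igf2bp1, Igf2bp2 and Igf2bp3 are genes of fetal tissues that many tumors express again, and their RNA was followed here through mouse liver development. They were taken by name, 5 of the 27962 gene names on the array, and every probe carrying those names was used, which gave 11 of 41174 non-control probes. The genes were chosen by their measured change between the stages on these same arrays, so their levels and differences are described with spreads and no test. Normal mouse liver was profiled at embryonic day 14 and day 18 (E14.5 and E18.5 in the text of the study), at postnatal day 5 (P5) and at postnatal day 56 (P56), with 3, 3, 2 and 3 biological replicates. The P5 replicates are numbered 2 and 3. Each of the 11 Agilent arrays held liver RNA labeled with Cy5 against commercial RNA of normal adult mouse liver labeled with Cy3, with no dye swap. The labels call the samples hepatoblasts at E14.5, immature hepatocytes at E18.5 and hepatocytes after birth, while the source is given as liver and the protocol speaks of whole livers as well as isolated fetal cells. The methods name C57BL/6 mice as the source of the isolated fetal cells, and the labels give no strain, genotype or treatment. Which fetal arrays hold isolated cells was not settled, and in bulk RNA fewer cells of a type and less RNA per cell cannot be told apart.

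HMGA1 and HMGA2 are small chromatin proteins whose AT-hook motifs bind the minor groove of AT-rich DNA and bend it, which helps transcription factors assemble. IGF2BP1, IGF2BP2 and IGF2BP3 are cytoplasmic RNA-binding proteins with RRM and KH domains that bind mRNAs such as those of IGF2, ACTB and MYC and govern their stability, transport and translation. Hmga2 and the Igf2bp genes are established targets of the let-7 family of microRNAs, whose maturation is blocked by the RNA-binding proteins LIN28A and LIN28B in fetal cells.

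The probes that stood for Hmga2 and Igf2bp1 both carried a let-7 seed match, so those stretches are shown beside mature let-7 sequences. In the RefSeq table (GRCm38.p6), 13 loci encode a mature microRNA with the seed GAGGUAG at bases 2 to 8, and these have 11 distinct sequences. The microRNAs themselves were not measured on these arrays. In the lines below, capitals mark the seed in the microRNAs and its match CTACCTC in the mRNA-sense probe sequence. The genome positions of the probe stretches are those of the array files (mm7), minus strand, at chr10:119755899-119755925 for Hmga2 and at chr11:96067169-96067196 for Igf2bp1.
mmu-let-7a-5p: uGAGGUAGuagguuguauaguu
mmu-let-7b-5p: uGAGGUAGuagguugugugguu
mmu-let-7d-5p: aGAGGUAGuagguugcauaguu
mmu-let-7g-5p: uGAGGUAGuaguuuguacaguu
Hmga2 probe A_52_P300730, bases 34 to 60: aaaacacactaCTACCTCttaagtccc
Igf2bp1 probe A_52_P295950, bases 1 to 28: tggttttaatCTACCTCttagcaaaaca
CTACCTC was present in 2 of the 11 probes and in 0.306% of all 41174 non-control probes of 60 bases, and its reverse complement GAGGTAG was present in 0 of the 11 and in 0.274% of all. A match is a description of the letters and not a measured site.

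Values are log2 ratios of Cy5 over Cy3 after background correction with an offset of 50 and loess normalization, an offset that shrinks the differences of dim spots. A spot was called well above background by the scanner software. By this mark 10 of the 11 probes had a Cy5 signal on all 3 E14.5 arrays, at E18.5 and at P5 8 had it throughout the stage, and at P56 1 did. On no P56 array were 8 of the 11 probes well above background, and no member spot was saturated or marked as an outlier. The filter on dim probes kept 10 of the 11, since it asked for a marked Cy5 signal throughout some stage, and all 5 genes were among the 16695 genes kept. Where a gene had several probes, the brightest stood for it.

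**Figure D1:**
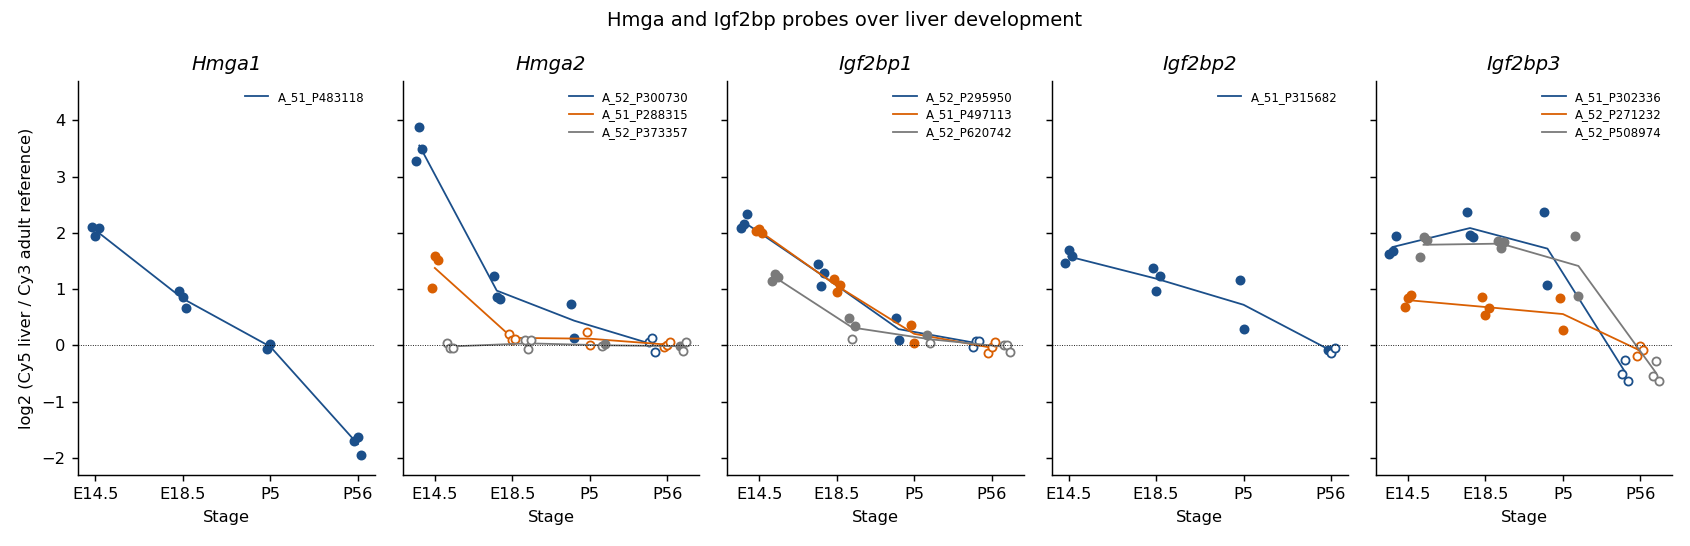
Log2 ratio of liver (Cy5) over adult reference (Cy3) by stage for all 11 probes, each point 1 array, filled where Cy5 was well above background and open where it was not, with lines through the stage means (3, 3, 2 and 3 arrays). The brightest Hmga2 probe dropped before E18.5, Igf2bp3 overlapped between E14.5, E18.5 and P5, and at P56 only Hmga1 had filled points on all 3 arrays.

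Hmga1 had a single probe, A_51_P483118 (mm7, chr17:25749229-25749288, plus strand), and was by far the brightest member probe, with Cy5 well above background on all 11 arrays. Its log2 ratios were 2.11, 1.95 and 2.09 at E14.5, then 0.96, 0.87 and 0.66 at E18.5. They were -0.07 and 0.02 at P5 and -1.69, -1.63 and -1.95 at P56. Every stage lay below the one before it with no overlap between arrays. The stage means were 2.05 ± 0.09 (SD, n = 3), 0.83 ± 0.15 (n = 3), -0.02 ± 0.06 (n = 2) and -1.76 ± 0.17 (n = 3). The P56 ratios were thus negative. Before normalization, Cy3 of the adult reference at this probe was 6225 to 6532 units on the P56 arrays, against 687 to 1531 units of Cy5. Without a dye swap, a difference between the RNAs and one between the dyes cannot be told apart here. From E14.5 to P56 the Cy5 level, normalized within and between arrays, differed 15.9-fold. The mouse genome holds an intronless relative, Hmga1b, that has no probe name of its own on the array, so signal at the Hmga1 probe could come from either gene.

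The Cy5 signal of Hmga2 at its brightest probe was high at E14.5 and low at every later stage, falling from 985 to 1988 units to between 98.9 and 151 units at E18.5. At probe A_52_P300730 (mm7, chr10:119755899-119755958, minus strand) the log2 ratios were 3.28, 3.89 and 3.49 at E14.5, and 1.23, 0.87 and 0.82 at E18.5. At P5 replicate 2 had 0.74 and replicate 3 had 0.14, and at P56 the values were 0.07, 0.13 and -0.12. The Cy5 spot was well above background on every array through P5 and on none at P56, where its signal was 39.5 to 40.7 units. The E14.5 arrays did not overlap any later stage. Normalized Cy5 was 9.74-fold higher at E14.5 than at E18.5, while the ratio to the reference differed by -2.58 ± 0.22 (SE) on the log2 scale. Against P56, E14.5 was at least 18.4-fold higher, close to the plain fold of 18.8 on signal near background. The bound takes, on each P56 array, the higher of the probe's own level and the lowest level marked well above background. The steps in log2 ratio were -2.58, -0.53 and -0.42, and how they share the fall depends on the background correction. With the scanner software's processed signals they were -1.23, -0.32 and -3.57, and in the deposited table -1.63, -0.16 and -1.34.

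The other Hmga2 probes gave weaker or no signal. A_51_P288315, 931 bases away by its start, was well above background at E14.5 alone, with log2 ratios of 1.02, 1.59 and 1.52, and its E14.5 level was at least 2.38-fold above P56. Its values correlated with those of the brightest probe (Pearson's r = 0.97 over the 11 arrays, which share the stage differences). A_52_P373357, named by a cDNA clone and lying 13177 bases from the brightest probe, failed the filter, with log2 ratios between -0.10 and 0.09 on all arrays but Cy5 well above background on 1 P5 and 1 P56 array.

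Igf2bp1 fell from E14.5 to E18.5 and again from E18.5 to P5. At probe A_52_P295950 (mm7, chr11:96067137-96067196, minus strand) the log2 ratios were 2.08, 2.17 and 2.34 at E14.5 and 1.44, 1.05 and 1.29 at E18.5. They were 0.49 and 0.09 at P5 and -0.02, 0.08 and 0.08 at P56, so that each stage lay below the one before it. At the end the margin was small, with 0.09 in P5 replicate 3 against 0.08 in the highest P56 array. Cy5 was well above background on every array through P5 and on none at P56, and E14.5 was at least 6.99-fold above P56 in normalized Cy5. The first 2 steps were -0.94 and -0.97 in log2 ratio, and their sizes depend on the processing, with -0.15 and -1.16 from the scanner software's processed signals and -1.51 and -1.04 in normalized Cy5. A_51_P497113 (mm7, chr11:96072251-96072310) moved with it (r = 0.995 over 11 arrays) and gave a bound of at least 6.46-fold. A_52_P620742 (mm7, chr11:96071229-96071288) was dimmer, with stage means of 1.21, 0.32, 0.11 and -0.03, and it was well above background on 3, 2, 1 and 0 arrays of the 4 stages.

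Igf2bp2 was lower at P56 than at all earlier stages. Its only probe, A_51_P315682 (mm7, chr16:21710360-21710420, minus strand), had log2 ratios of 1.47, 1.69 and 1.58 at E14.5 and 1.37, 0.96 and 1.23 at E18.5. At P5 replicate 2 had 1.15 and replicate 3 had 0.29, and at P56 the values were -0.09, -0.14 and -0.05. E14.5 lay above E18.5 without overlap, by 0.39 ± 0.14 (SE), while the P5 and E18.5 arrays overlapped. P56 lay below P5, by 0.82 ± 0.43 (SE). Cy5 was well above background on 1 of the 3 P56 arrays, and normalized Cy5 was 3.26-fold higher at E14.5 than at P56.

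Igf2bp3 arrays overlapped from E14.5 to P5 and were lower at P56. At probe A_51_P302336 (mm7, chr6:49047900-49048507, minus strand, 60 bases placed over 608 bases of genome) the log2 ratios were 1.62, 1.69 and 1.94 at E14.5 and 2.37, 1.96 and 1.93 at E18.5. P5 replicate 2 had 2.37, as high as any E18.5 array, and P5 replicate 3 had 1.07, below all embryonic arrays. The P56 values were -0.51, -0.26 and -0.63. E14.5, E18.5 and P5 overlapped with each other, and P56 lay below all of them. Cy5 was not well above background on any P56 array, at 40.9 to 43.8 units, while Cy3 of the adult reference was well above background on all 11 arrays. Normalized Cy5 was at least 5.52-fold higher at P5 and at least 4.89-fold higher at E14.5 than at P56. Of the other probes, A_52_P508974 (mm7, chr6:49045761-49045820) had stage means of 1.79, 1.81, 1.41 and -0.48, and A_52_P271232 (mm7, chr6:49067452-49067511) had 0.80, 0.68, 0.56 and -0.09, highest at E14.5. In both, E14.5, E18.5 and P5 overlapped and P56 lay apart.

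**Figure D2:**
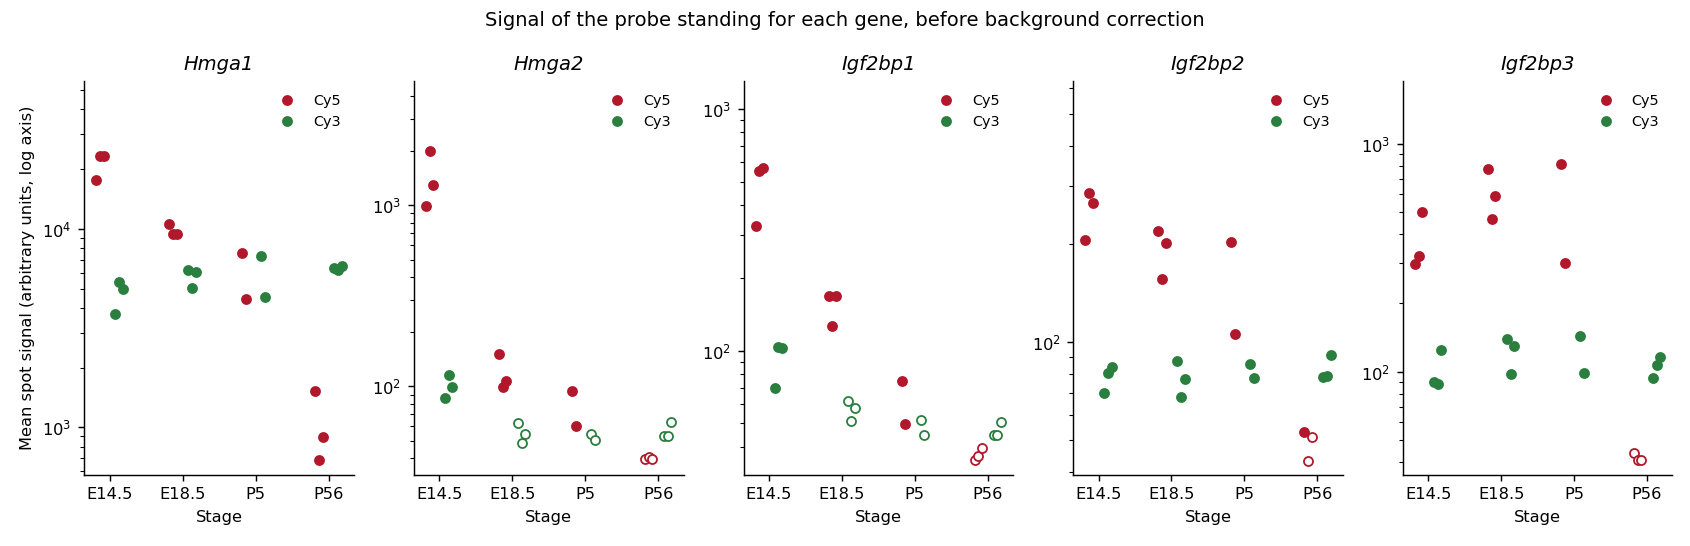
Mean spot signal before background correction, on a log axis with its own range for each gene, in Cy5 (liver, red) and Cy3 (adult reference, green) by stage for the probe that stood for each gene. Each point is 1 array, filled where that channel was well above background. Cy3 of Hmga2 and Igf2bp1 was filled on the E14.5 arrays alone, and Cy5 of Hmga2, Igf2bp1 and Igf2bp3 was open on all P56 arrays.

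The Cy3 channel holds the same adult RNA on every array, and its signal differed between stages for some member probes. At the Hmga2 probe A_52_P300730 Cy3 was well above background on the 3 E14.5 arrays, at 85.9 to 115 units, and on none of the other arrays, at 48.4 to 63.7 units. The same held for Igf2bp1 at A_52_P295950, with 70.1 to 103 units on the E14.5 arrays against 44.8 to 62.0 units elsewhere. The E14.5 arrays are also those with the highest Cy5 at these probes. Whether the reference signal there reflects the reference RNA was not tested. Normalized Cy5 gave differences between E18.5 and E14.5 of -3.28 for Hmga2 and -1.51 for Igf2bp1, against -2.58 and -0.94 as ratios. Cy3 still enters the normalized Cy5 values through the normalization. At Igf2bp2 and Igf2bp3 Cy3 was well above background on all 11 arrays, with ranges of 67.8 to 91.6 units and 88.2 to 143 units.

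Set side by side, the 5 genes shared the fall to P56. Between E14.5 and E18.5 4 of the 5 were lower with no overlap of arrays, where 31.5% of all 16695 genes were. Between E18.5 and P5 3 of the 5 were lower with no overlap, against 21.5% of all genes, and Igf2bp2 and Igf2bp3 overlapped. At P56 all 5 were lower than at P5, against 33.0% of all genes, and all 5 were lower than at E14.5, against 36.8%. These directions were known when the genes were chosen and nothing is read from the counts. Over the 11 arrays Pearson's r between members ran from 0.51, for Hmga2 with Igf2bp3, to 0.94, for Hmga1 with Igf2bp2, and these values rest on the 4 stages that all members share.

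The P5 arrays differed from each other in several of the genes. Replicate 3 was lower than replicate 2 by 1.30 for Igf2bp3, by 0.86 for Igf2bp2, by 0.60 for Hmga2 and by 0.40 for Igf2bp1 (log2 ratio), and the difference was 0.09 in the other direction for Hmga1. Replicate 3 was scanned together with the P56 arrays, and replicate 2 was scanned alone. The mean log2 ratio of 15 cell cycle genes was 2.99 in replicate 2 and 2.18 in replicate 3, and that of 14 erythroid genes was 3.11 and 2.46. Their part in the members' difference was not tested. Within the scan that holds P5 replicate 3 and the P56 arrays, P56 was lower by 1.78 for Hmga1, 1.54 for Igf2bp3 and 0.38 for Igf2bp2. The same comparison gave -0.12 for Hmga2 and -0.05 for Igf2bp1. Within the scan that holds the E14.5 arrays and E18.5 replicate 1, E18.5 minus E14.5 was -2.32 for Hmga2, -1.09 for Hmga1, -0.75 for Igf2bp1, -0.21 for Igf2bp2 and 0.62 for Igf2bp3. Scans and stages otherwise cannot be told apart.

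The genes whose profile was most like that of each member were taken by Pearson's r over the 11 arrays among 16432 genes measured on all of them. For Hmga1 these were Pbx2 (r = 0.996), Cfl1 and Nup85 (r = 0.995 for both). For Hmga2 they were Aldh1a2 (r = 0.995), Cand2 and Amph (r = 0.993 for both), and Aldh1a2, which encodes a retinaldehyde dehydrogenase, had stage means of 1.56, 0.39, 0.12 and -0.01. For Igf2bp1 they were A_52_P932984, NAP028864-1 and 2310057M21Rik (r = 0.990, 0.988 and 0.986), which the array does not name further. For Igf2bp2 they were Nup160, TC1502405 (r = 0.994 for both) and 2610016C23Rik (r = 0.993), and Nup160, a nuclear pore protein, had means of 1.70, 1.32, 0.79 and -0.11. For Igf2bp3 they were Neil3, Dot1l (r = 0.992 for both) and 5730593F17Rik (r = 0.991). Neil3, a DNA glycosylase, had means of 2.14, 2.62, 2.13 and -0.11, close to those of Igf2bp3 at 1.75, 2.09, 1.72 and -0.47.

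Genes with a known part around these proteins were taken from 6 lists holding 64 genes, of which 57 were kept and tested. The lists, like the members, were chosen with earlier results of these data known. Their counts and p-values thus describe these arrays and are no independent support. Dis3l2, Trim71 and Irs2 had no probe under these names, and Insr, Gli1, Mapk4 and Plag1 did not pass the filter. The limma fit over all 16695 genes with Benjamini-Hochberg adjustment called 31 of the 57 between E14.5 and E18.5, 12 higher and 19 lower, or 54.4% against 47.4% of all genes, of which 24.6% were higher and 22.8% lower. Between E18.5 and P5 it called 12, all lower, or 21.1% against 13.7% of all genes (7.32% higher and 6.4% lower). Between P5 and P56 it called 5 higher and 35 lower, or 70.2% against 45.6% (20.9% higher and 24.7% lower), and between E14.5 and P56 3 higher and 48 lower, or 89.5% against 70.9%. Of all genes, 36.1% were higher and 34.8% lower at P56 than at E14.5. Without P5 replicate 3 the count between E18.5 and P5 was 3, Arid3a and Dlk1 being kept and Igf2 gained, and without P5 replicate 2 it was 20. Differences below are given with the SE of the fit after ±. They are log2 ratios of the brightest probe, which for some bright genes changed less than normalized Cy5. Other probes of several genes gave smaller changes. The P56 arrays were dim for some of these genes, 10 of the 57 being well above background on none of them.

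**Figure D3:**
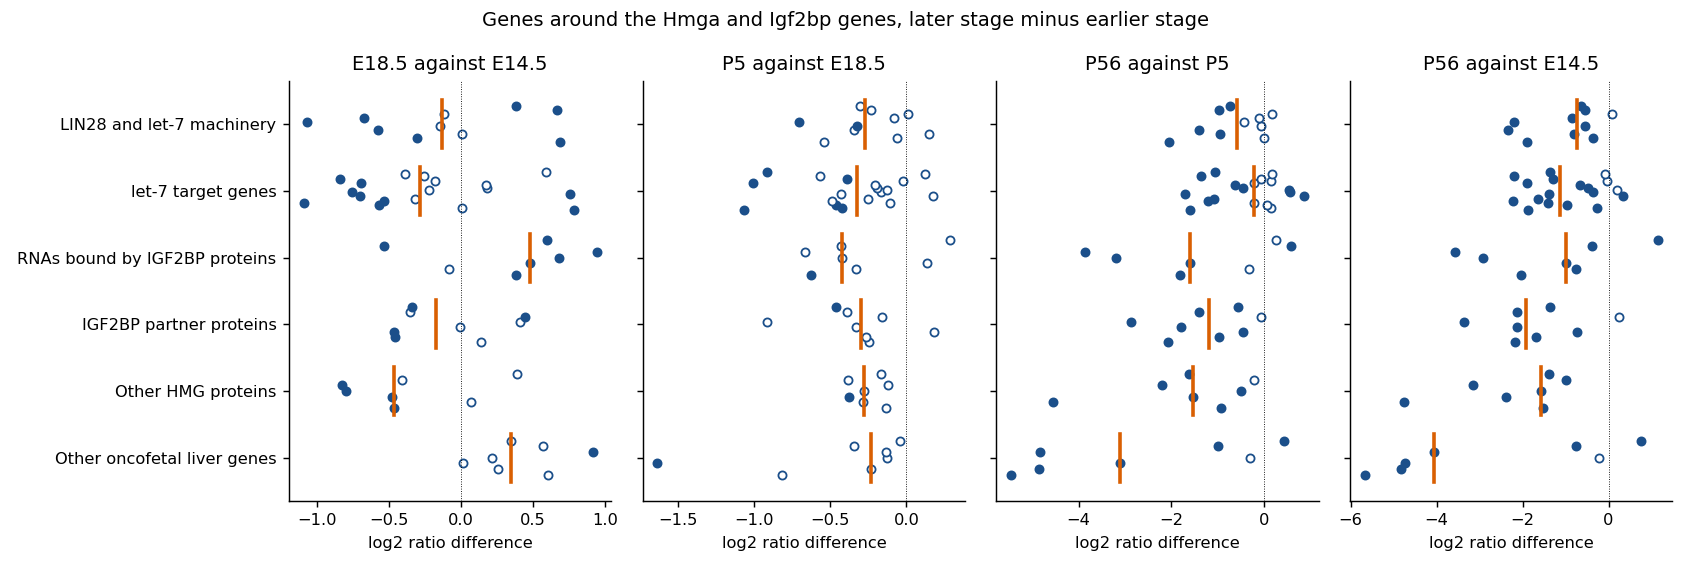
Difference in log2 ratio, later minus earlier stage, for the 57 tested genes of 6 lists in 4 comparisons, each point 1 gene, filled where its adjusted p in the limma fit was under 0.05, with an orange bar at the list's median. Each panel has its own horizontal range. No list gene was called higher from E18.5 to P5, and most points lie left of zero at P56.

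In the LIN28 and let-7 machinery, 9 of the 10 tested genes were lower at P56 than at E14.5 and none was higher, with a median difference of -0.72 against 0.04 over all genes. Lin28b, which blocks let-7 maturation, had log2 ratios of 1.98, 2.30 and 2.50 at E14.5 and 1.20, 1.05 and 1.31 at E18.5. P5 replicate 2 had 0.85 and replicate 3 had 0.11, and the P56 arrays had 0.06, 0.03 and 0.08 with Cy5 not well above background. It fell from E14.5 to E18.5 by 1.07 ± 0.18 (SE, adjusted p = 0.000388, limma) and from E18.5 to P5 by 0.71 ± 0.20 (adjusted p = 0.0354), and E14.5 was at least 5.49-fold above P56. Lin28a was dim, with means of 0.58, 0.43, 0.11 and 0.04 over the 4 stages and Cy5 well above background on the embryonic arrays alone. It was lower at P5 than at E18.5 (adjusted p = 0.0466, limma), a call lost on leaving out P5 replicate 3, P56 replicate 3 or any embryonic array. That of Lin28b was lost on leaving out E14.5 replicate 2, P5 replicate 3, P56 replicate 3 or any E18.5 array. Zcchc11, a uridyltransferase that tags let-7 precursors, rose from E14.5 to E18.5 by 0.67 and fell after P5 by 0.97 (limma, adjusted p under 0.05 for both). Ago2, the slicing Argonaute, rose by 0.69 ± 0.21 to E18.5, a call lost without replicate 1 or 2 of E14.5 or replicate 1 or 3 of E18.5, and fell by 2.05 ± 0.24 after P5. The rise of Zcchc11 was lost without E18.5 replicate 3. Other Ago2 probes past the filter gave 0.20 and 0.05 to E18.5, and -1.13 and -0.18 after P5. Drosha, which cuts primary microRNAs, fell by 2.33 ± 0.12 from E14.5 to P56 (adjusted p = 1.12e-08, limma), and Tarbp2, a Dicer partner, fell by 0.68 ± 0.09 before E18.5.

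Of the 18 tested let-7 targets, 14 were lower and 1 was higher at P56 than at E14.5, with a median difference of -1.12. Before E18.5 7 were lower and 2 were higher, and between E18.5 and P5 6 were lower and none higher. Ccnd1, a cyclin of G1 phase, fell before E18.5 by 1.09 ± 0.18, and Nras fell by 0.84 ± 0.09 (limma, adjusted p = 0.000337 and 1.8e-05). Arid3a, an AT-rich DNA-binding factor, rose by 0.79 ± 0.14 before E18.5 and fell by 1.07 ± 0.16 between E18.5 and P5. Mycn fell by 1.01 ± 0.22 between E18.5 and P5 and was at least 3.76-fold lower at P56 than at E14.5. Thbs1 fell by 0.91 ± 0.27 between E18.5 and P5 (adjusted p = 0.0455, limma), a call lost without any of the embryonic arrays and without some later arrays. After P5 Cdk6, a G1 kinase, fell by 1.71 ± 0.15, and Plagl2 fell by 1.36 ± 0.23. Another Cdk6 probe past the filter gave -0.07 after P5. Ccnd2 fell by 2.22 ± 0.15 over the whole course (adjusted p = 6.08e-08, limma). After P5 3 targets were higher, Cdc34, E2f5 and Gng5, by 0.87, 0.57 and 0.54, with the call of Gng5 lost without P5 replicate 2, P5 replicate 3 or P56 replicate 2; they were named after their values were seen.

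Most RNAs bound by IGF2BP proteins rose to E18.5 and fell after P5. Between E14.5 and E18.5 5 of the 7 tested were higher and 1 was lower, and between E14.5 and P56 6 were lower. Igf2, the fetal growth factor from which these proteins take their name, had log2 ratios of 3.62, 3.76 and 3.74 at E14.5 and 4.46, 4.83 and 4.66 at E18.5. Its values were 3.59 and 4.38 at P5 and 0.51, -0.00 and -0.11 at P56. It rose by 0.94 ± 0.20 to E18.5 (adjusted p = 0.00228, limma) and fell by 3.85 ± 0.23 after P5 (adjusted p = 1.37e-07). The difference of -0.66 between E18.5 and P5 did not pass (adjusted p = 0.0729). H19, the imprinted noncoding RNA beside Igf2, rose by 0.68 ± 0.13 and then fell by 3.18 ± 0.15 after P5, with -0.42 in between (adjusted p = 0.078, limma). In normalized Cy5, P5 was 543-fold above P56 for Igf2, with 1 of the 3 P56 arrays well above background, and 133-fold for H19. For both genes the ratio gave a smaller fall, and the reason was not tested. Actb, the cytoskeletal actin, fell by 0.62 ± 0.13 between E18.5 and P5 and fell by 1.80 ± 0.13 after it.

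Of 8 partner proteins of the IGF2BPs, 7 were lower at P56 than at E14.5 and none was higher, with a median of -1.91. Pabpc1, the poly(A)-binding protein, fell by 2.87 ± 0.29 after P5, Dhx9, an RNA helicase, by 2.06 ± 0.17, and Hnrnpu by 1.79 ± 0.17 (limma, adjusted p = 1.15e-05, 2.32e-06 and 1.53e-05). Another Pabpc1 probe past the filter gave -0.49 after P5. Syncrip fell by 2.14 ± 0.21 over the whole course. Before E18.5 Fmr1 fell by 0.47 ± 0.09 and Elavl1 by 0.46 ± 0.14, while Stau1, which binds double-stranded RNA, rose by 0.45 ± 0.13. Ybx1 was the 1 partner called between E18.5 and P5, where it fell by 0.46 ± 0.11. The calls of Stau1 and Elavl1 were each lost without replicate 1 and without replicate 3, respectively, of E14.5 or E18.5, and that of Ybx1 without E18.5 replicate 1 or P5 replicate 3. Another probe of Ybx1 and another of Elavl1 gave the opposite sign in these comparisons.

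The 7 other HMG proteins were all lower at P56 than at E14.5. Hmgb2, an HMG-box protein of dividing cells, had means of 3.99 at E14.5 and 3.78 at P5 and fell by 4.55 ± 0.18 after P5 (adjusted p = 2.47e-08, limma). Hmgn2, which binds nucleosomes, fell by 0.83 ± 0.14 before E18.5 and by 2.20 ± 0.16 after P5, and Hmgn1 fell by 0.80 ± 0.15 before E18.5. Hmgb3 fell in each of the 3 steps, by 0.48, 0.38 and 1.53, and Hmgn5 fell by 1.62 ± 0.30 after P5. The call of Hmgb3 between E18.5 and P5 was lost on leaving out any embryonic array, P5 replicate 3, P56 replicate 2 or P56 replicate 3. Among 7 other oncofetal liver genes, 5 were lower and 1 was higher at P56 than at P5, with a median of -3.11. Afp, the fetal serum protein, fell by 5.46 ± 0.29, Cd24a fell by 4.85 ± 0.14 and Gpc3, a heparan sulfate proteoglycan, fell by 4.84 ± 0.10 (limma, adjusted p = 5.98e-08, 2.73e-09 and 3.41e-10). In normalized Cy5, P5 was 131-fold above P56 for Gpc3, a larger change than the ratio gave. Gpc3 had risen by 0.91 ± 0.10 before E18.5. Dlk1, an imprinted surface protein of hepatoblasts, was the 1 gene of this list called lower between E18.5 and P5, by 1.63 ± 0.21. Afp differed by -0.81 in that step and did not pass (adjusted p = 0.0828, limma). In normalized Cy5, the E18.5 level of Dlk1 was 11.3-fold above P5, and P5 was at least 16.3-fold above P56. From E14.5 to E18.5 Dlk1 changed by 0.01 as a ratio, while normalized Cy5 was 2.49-fold higher at E14.5. The gene that was higher after P5 was Sall4, by 0.44, a call lost without P5 replicate 2, P56 replicate 2 or P56 replicate 3, and its other probe gave -0.30.

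**Figure D4:**
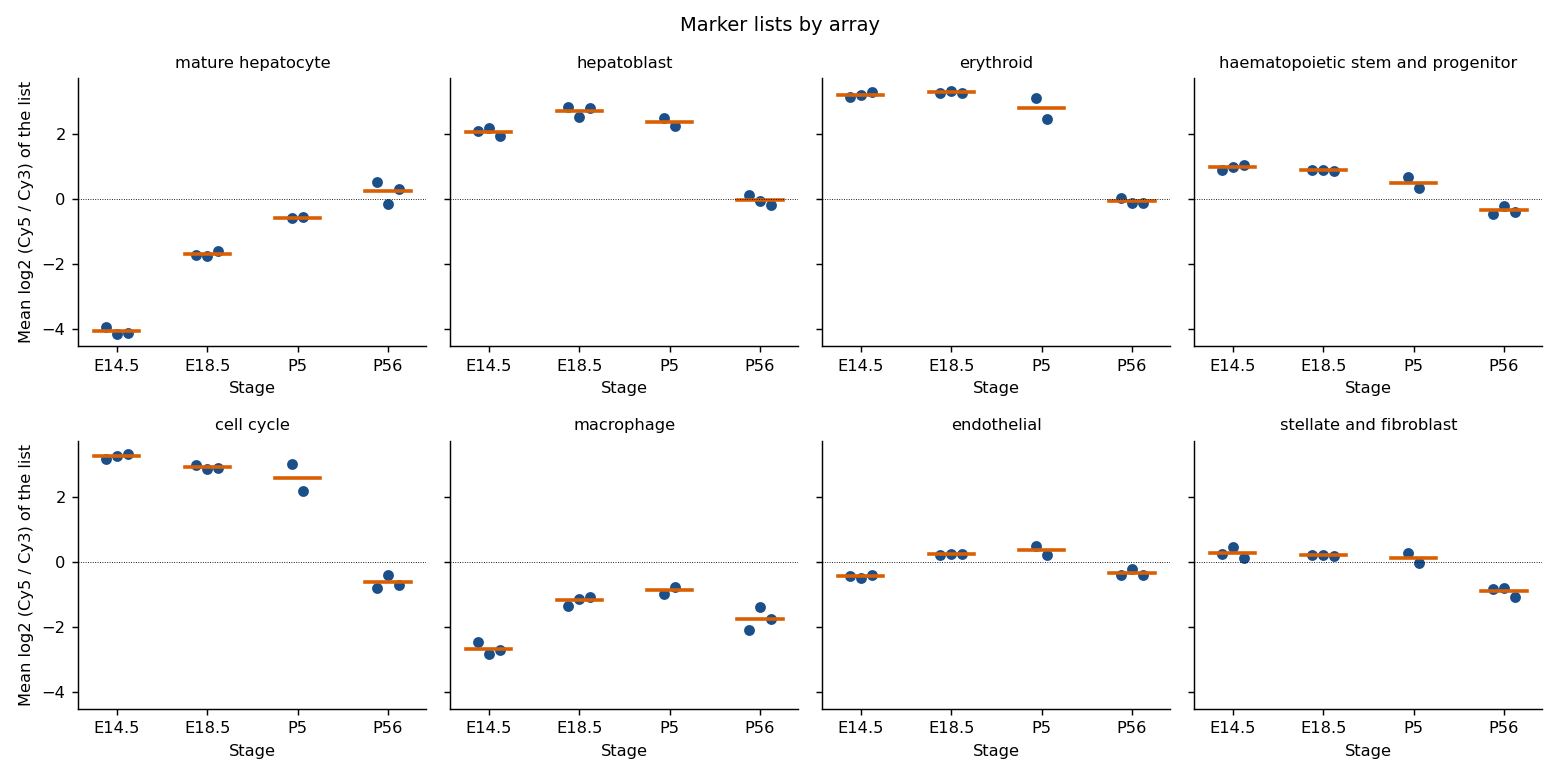
Mean log2 ratio of each marker list on each of the 11 arrays by stage, with an orange bar at the stage mean. Mature hepatocyte genes climb from about -4 at E14.5 to near zero at P56, and erythroid and cell cycle genes drop most between P5 and P56.

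RNA of cell type markers also changed between the stages, and not all lists went in the direction of the members. The mean log2 ratio of 12 mature hepatocyte genes ranged from -4.16 to -3.95 at E14.5 and -0.15 to 0.53 at P56, and all 12 were higher at P56 in the limma fit. Erythroid genes, 14 of 14, were well above background on all embryonic and P5 arrays, and their list mean was 3.13 to 3.28 in the E14.5 samples. It was 3.25 to 3.33 at E18.5, 2.46 to 3.11 at P5 and -0.14 to 0.03 at P56. All 10 macrophage genes were well above background on every array, though below the adult reference as a list. Their list means were -2.85 to -2.48 at E14.5 and -1.37 to -1.08 at E18.5. Defining genes of other cell types than those labelled were thus measured in the fetal samples. Cell cycle genes, 15 of 15 lower at P56 than at P5, had list means from 3.16 to 3.30 on the E14.5 arrays, from 2.86 to 2.96 on the E18.5 arrays, 2.18 to 2.99 at P5 and -0.80 to -0.41 at P56. Hepatoblast genes, 4 of whose 7 are also in the oncofetal list, had list means from 1.94 to 2.18 on the E14.5 arrays, from 2.52 to 2.82 on the E18.5 arrays and 2.25 to 2.48 at P5. The erythroid and cell cycle lists were lower on both P5 arrays than on every E14.5 array, and both fell further to P56. The part of these markers in the members' levels was not tested.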

How the data were processed

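RNA of 11 samples (E14.5, E18.5 and P56 with 3 each, P5 with 2) was hybridized in Cy5 against an adult liver reference in Cy3. The authors deposited the intensity, local background and flags of each spot (scanner software Feature Extraction 9.5.1.1), and a table of log2 ratios for 28050 genes that served as an alternative. Every column of that table correlated with its own array at r = 0.815 to 0.931, E14.5 replicate 1 slightly better with replicate 3, and had a median of -0.06 to 0.05. Its normalization beyond this was not checked.

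Background was corrected with normexp (offset 50), arrays were normalized by loess, and outlier spots were left out. Cy5 was well above background at 16790 (P56 replicate 2) to 25718 spots, and the number of arrays limits the precision. Kept were probes whose Cy5 passed this mark throughout some stage with at most 1 missing value in each, the brightest standing for its gene. Stages were compared with limma 3.58.1 (R 4.3.3) over 16695 genes, Benjamini-Hochberg threshold 0.05, with the fit tested on simulated data. Folds are normalized Cy5 after loess and Aquantile, steps that also use Cy3, and are open to dye bias without swaps. A fold against a stage where no array was well above background is a bound. It uses the higher of the probe's own level and the lowest marked level on each array. For members, ± after a difference is the SE from both stages' SDs.

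The members and lists were chosen with earlier results of these data known. Named are all member probes, in each list and comparison the 3 largest called changes without overlap, Lin28a, Lin28b, Igf2 and H19, and the 3 genes most like each member. The array calls Lin28a Lin28, Ago2 Eif2c2, Drosha Rnasen, Hnrnpu Hnrpu and Hmgn5 Nsbp1. Probe positions are on mm7, and exon or UTR positions were not read. Alternatives were other background corrections, normalizations, filters and probe rules, the deposited table, replicate and scan blocks, array weights, each array left out, and the methods' t-test. Over 15 same-numbered pairs of arrays, deviations from stage means correlated at -0.30 to 0.19, with 1 pair over 0.1, so the numbers do not pair the samples.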

Additional observations from a re-analysis of the deposited data

How the results depend on the processing

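The 5 members had 234 differences recomputed under settings other than leaving out an array: 173 moved by less than the spread between replicates, 60 moved by more without reversing a difference larger than that spread, and 1 reversed. That was Igf2bp3 between E14.5 and E18.5, 0.34 here and -0.11 in the deposited table of log2 ratios. All 220 differences with an array left out moved by less than the spread. With 2 or 3 arrays a stage no single array could move a difference by more, so this says nothing about stability. Igf2bp3 between E18.5 and P5, -0.37 here, ran from -1.02 to 0.29 with an array left out. Without P5 replicate 2 the difference between P5 and P56 was -0.12 for Hmga2 and -0.05 for Igf2bp1, instead of -0.42 and -0.25. The count of list genes called between E14.5 and E18.5, 31 here, was 10 with the deposited table. The count between E18.5 and P5, 12 here, was 6 with the scanner software's processed signals, with the stricter filter and with scan as a random block, 7 with median centring and with the Cy5 channel alone, 3 with array weights, 4 with the replicate block, and 0 with the deposited table and with the methods' t-test after Benjamini-Hochberg adjustment. The count between P5 and P56, 40 here, was 4 with that t-test after adjustment. With an array left out the counts ran from 24 to 35, from 3 to 20, from 32 to 41 and from 47 to 51 in the 4 comparisons. For E18.5 and P5 the count was 7 without E14.5 replicate 2, 4, 6 and 5 without E18.5 replicates 1, 2 and 3, 20 without P5 replicate 2 and 3 without P5 replicate 3. The cause was not tested. The replicate block moved no other count by over 1.5 times. Scan as a fixed block could be fitted for E18.5 against E14.5 and for P56 against P5 only, with 23 and 32 calls. The stricter filter leaves Hmga1 alone of the members. Signal over background limits what can be said at P56, where 4 of the 5 genes have a bound or a level near background.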
